A study of Chlamydomonas reinhardtii with 25 samples.

Results

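The 200 genes described here are those whose transcripts were lowest, relative to unexposed cells, in all of 4 exposures of Chlamydomonas reinhardtii to rare earth elements. They were taken from 19526 rows of annotated transcripts, called genes here. The rows hold 18024 distinct IDs, and 1502 IDs stand on more than 1 row. Of the 19526, 7985 had a mean of at least 5 CPM (counts scaled to a common library size) in some group. For each of these the difference D was computed per exposure, as log2(mean CPM + 0.5) of the exposed group minus that of the control. The genes were chosen by their highest D over the 4 exposures, so that a gene ranks first when even its smallest fall is deep, and the first 200 were kept. The values of each exposure against the control therefore selected them, and these are given as a description without a test. The rule did not rank the genes by the differences between one exposure and another or by the spread among libraries. It does limit the exposure nearest to the control, so comparisons between exposures are not independent of it.

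Chlamydomonas reinhardtii is a unicellular green alga, and the strain was the wild type CC-125 in every group. Cells in mid-exponential growth were washed and then kept 2 h in a medium of 10 µM calcium nitrate, buffered to pH 7.0 by 10 mM NaHEPES. One group received no metal (control), and the others received cerium (Ce), thulium (Tm), yttrium (Y) or an equimolar mixture of the 3 (Mix). The concentration was 0.5 µM, and for Mix the labels leave unsaid whether this is a sum or applies to every metal. Each group has 5 libraries, 25 in all. The labels do not say whether these came from separate cultures, so the p-values measure the spread between libraries only. Cultures of 1 cell type were measured in bulk, and fewer transcripts per cell cannot be told apart from fewer cells that hold them. CPM are relative to the library, so a change in the total mRNA of a cell is not seen.

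Rare earth elements are trivalent metals that resemble calcium in ionic size, and lanthanide ions are commonly used in the laboratory as blockers of calcium channels. Cerium is one of the light and thulium one of the heavy elements of the lanthanide series. Yttrium is no lanthanide, but its ion is close in size to those of the heavy ones and it is usually grouped with them. The level of a transcript is set by its synthesis and its decay, and a count of reads does not separate these. Neither the deposited table nor the reference used here gives a symbol or product for any of the 200 IDs, so they are named by ID and no role is attached to them.

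Of the 200 IDs, 135 have the Cre form, which carries a chromosome number and a locus number, and 65 have the form of the letter g and a number. The g form made up 32.5% of the 200 and 25.1% of the 12796 genes that had enough counts to be tested. By the numbers in their IDs, the 135 genes of the Cre form come from 16 of the 17 chromosomes. Chromosomes 3 and 12 hold 15 each, which is 1.65% and 1.32% of their tested genes. Chromosomes 1, 6 and 7 hold 13 each (1.64%, 1.48% and 2.04%). The highest share was 2.75%, with 10 of 363 on chromosome 8, and chromosome 15 holds 0 of its 89 tested genes. These shares were not tested. A total of 124 matched a locus tag of the reference (assembly Chlamydomonas_reinhardtii_v5.5), and 10 of these stand directly next to another of the 200, which makes 5 pairs. This is 8.06% of the matched genes, against 1.76% of all matched tested genes that stand next to one of the 200. Cre07g327750 and Cre07g327800 form one such pair, the second ranked 6 of 200. Cre06g296700 and Cre06g296750 form another, with mean levels of 108 and 105 CPM in the control, 6.51 and 9.35 in Ce, 10.6 and 11.4 in Y, 15.0 and 16.0 in Tm, and 17.3 and 16.9 in Mix. Whether strand was used in counting is not given in the sources used here, so reads from overlapping neighbours cannot be told apart.

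Totals per library ran from 12921000 to 28974000 counts, and the scaling factors were higher in Ce (1.42 ± 0.03, SD, n = 5) than in the other exposures (0.92 to 0.96) and most scattered in the control (0.87 ± 0.17). The control libraries stood apart from one another in the 200 genes. Control library 1 had the lowest CPM of the 5 controls in 190 of the 200, where 50.0% of the 7985 genes had it lowest, and control library 4 had the highest in 166, where 34.9% of the 7985 genes had it highest. With library totals these counts were 138 and 121. The median level of the 200 genes was 30.4 CPM in control library 1, 58.0 in library 2, 60.0 in library 3, 75.4 in library 4 and 43.8 in library 5. Library 1 was thus the control nearest to the exposed libraries, whose medians were at most 7.48 CPM. On the log2 scale the median deviations of the 5 controls spanned 1.21, and 0.55 when library totals were used without scaling factors. In the 200 genes with the highest minimum D, the mirror image of these, control library 1 had the highest CPM of the 5 controls in 126. The share of the 7985 genes with library 1 highest was not counted, so nothing is read from this.

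**Figure D1:**
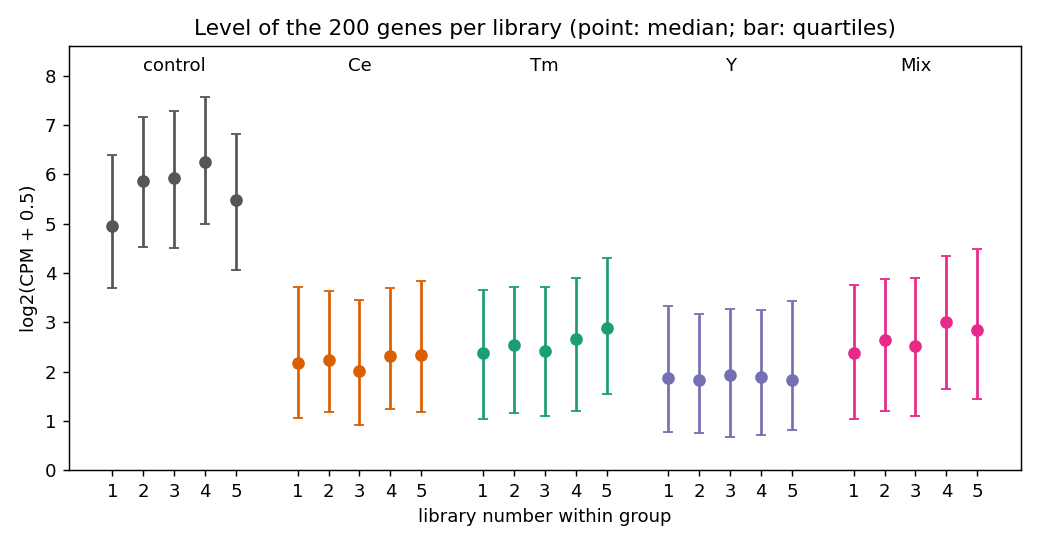
Level of the 200 genes in each of the 25 libraries, as log2(CPM + 0.5). Points are medians over the 200 genes and bars reach from the lower to the upper quartile. The lowest control median, 4.95 in library 1, lies above the highest exposed median, 3.00 in Mix library 4.

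The 200 genes held 2.79% ± 0.36 (SD, n = 5) of all counts in the control libraries. This share does not depend on the scaling factors, although the choice of the genes does. It leans on the genes with the most reads: of a summed control mean of 33600 CPM, Cre02g097800 alone had 7327. The 5 controls had 2.29%, 2.98%, 2.88%, 3.20% and 2.58%. In Ce the share was 0.57% ± 0.08, in Mix 0.44% ± 0.08, in Tm 0.37% ± 0.07 and in Y 0.239% ± 0.017 (SD, n = 5 each). The lowest control value lies above the highest exposed value, 0.625% in Ce library 5. Among the exposures, every Y library was below every library of the other 3 exposures, whose lowest value was 0.311% in Tm library 1, while Ce, Tm and Mix overlapped.

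**Figure D2:**
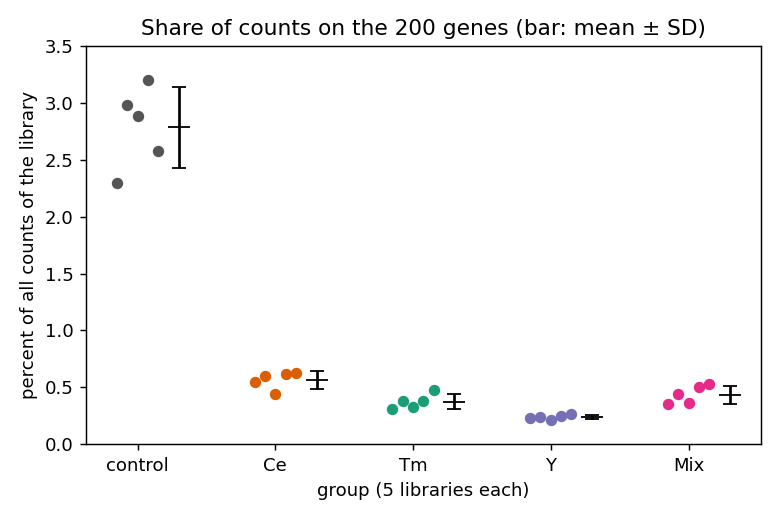
Percent of all counts of a library that fall on the 200 genes, by group. Points are the 5 libraries of a group and the bar beside them is the mean ± SD. Controls lie between 2.29% and 3.20%, exposed libraries between 0.217% and 0.625%.

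The genes were spread over a wide range of counts. Their mean CPM in the control ran from 5.08 to 7327 with a median of 53.7, against a median of 16.8 over the 7985 genes. In all, 62 exceeded 100 CPM and 15 were under 10. CPM are not divided by transcript length, so these are shares of reads and not an order of molecules.

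The median D of the 200 genes was -3.64 in Y, -3.14 in Ce, -3.06 in Tm and -2.93 in Mix, where the 7985 genes had medians between -0.06 and 0.11. The median gene kept 6.54% of its control CPM in Y, 9.60% in Ce, 10.5% in Tm and 11.1% in Mix. By the rule the mildest fall among the 200 was the limit itself. The genes just inside were g4407 (-2.36), Cre11g478100 (-2.36) and g7847 (-2.35), and those just outside were g17455, Cre12g540650 and Cre03g184100 (all at -2.35), so nothing separates the 200 from the genes that follow them. The 4 exposures were within 2-fold of one another in 99 of the 200, and 7 spanned more than 4-fold. The most even gene was g1862, with D of -2.68 in Ce and Mix, -2.64 in Y and -2.56 in Tm, named for that evenness after its values were seen.

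In 198 of the 200 every control library lay above every exposed library, against 19.1% of the 7985 genes. This count follows from the choice of the genes, and nothing is read from it. The exceptions were g10592 and Cre07g334400, named because the count leaves out only these. In g10592 control library 1 had 14.6 CPM, against 23.1 in Mix library 4, 17.5 in Tm library 4 and 16.0 in Y library 4. In Cre07g334400 control library 1 had 7.87 CPM, against 8.31 in Mix library 4.

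**Figure D3:**
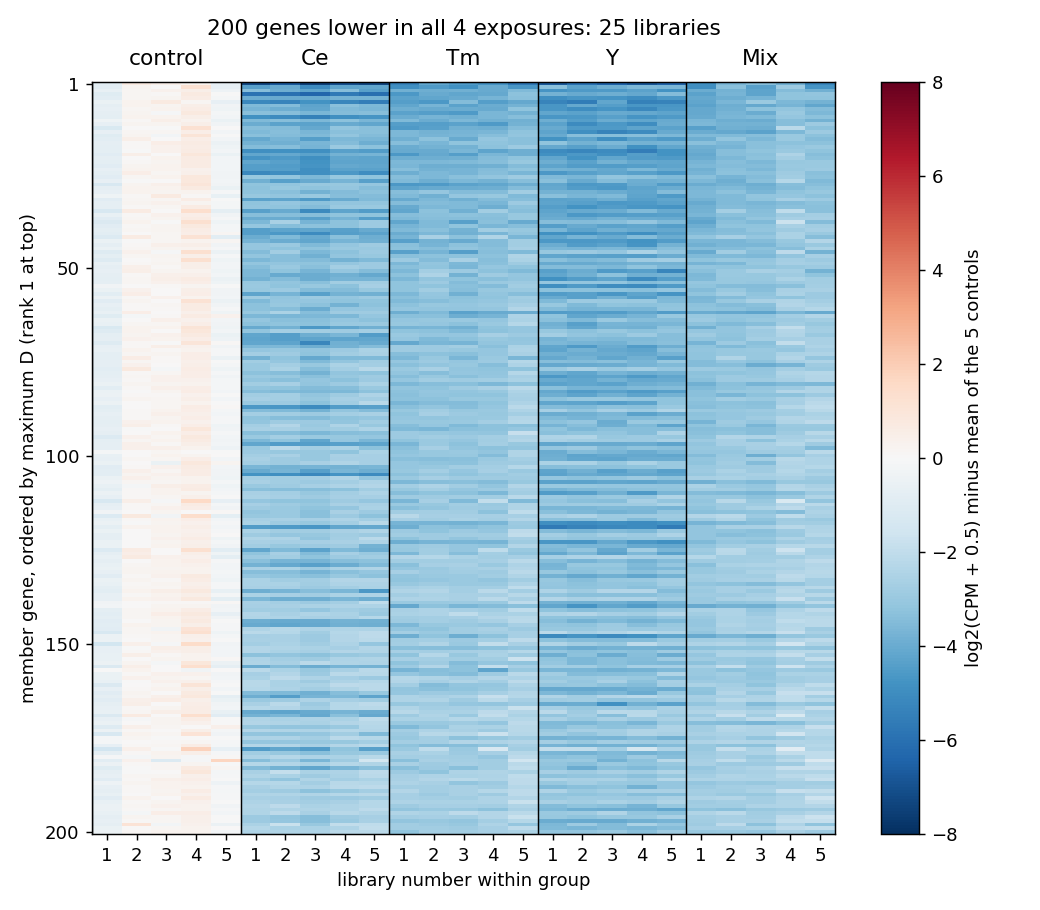
The 200 genes (vertical axis, ordered by highest D, rank 1 at the top) in the 25 libraries (horizontal axis, by group), as log2(CPM + 0.5) minus the mean of the 5 controls. Blue is lower and red is higher than the mean control. The exposed columns are blue, control library 1 is pale blue and control library 4 pale red, and Y, the farthest from the control in 135 genes, has the darkest blue over much of the map.

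Cre13g603550 ranked first. Its CPM were 94.2, 276, 241, 211 and 110 in control libraries 1 to 5. They were 0.632, 1.12, 0.463, 0.791 and 0.617 in Ce and 1.08, 2.22, 1.39, 0.979 and 1.39 in Y. They were 3.75, 8.93, 6.97, 5.99 and 2.71 in Tm and 5.32, 12.8, 15.6, 11.3 and 4.09 in Mix. The groups fell into 3 levels, with the controls at 94.2 CPM or more, Tm and Mix between 2.71 and 15.6, and Ce and Y at or below 2.22, and neither gap was crossed by a library. The gene thus kept 0.389% of its control level in Ce and 0.758% in Y, but 3.04% in Tm and 5.28% in Mix.

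The second gene, g16214, had 17.0, 36.5, 31.7, 74.5 and 20.0 CPM in the controls and means of 1.90 ± 0.53 for Y, 1.72 ± 1.35 for Mix, 1.09 ± 0.38 for Ce and 0.85 ± 0.36 for Tm (SD, n = 5 each). It is 1 of 3 genes whose mildest fall was in Y. Cre10g463400, the third, had 11.2, 18.7, 21.6, 24.0 and 12.7 CPM in the controls. Its means were 0.74 ± 0.38 in Ce, 0.74 ± 0.17 in Tm and 0.72 ± 0.24 in Mix (SD, n = 5 each), and in Y it was at 0.233 ± 0.104 CPM, on 22 counts over the 5 libraries. Y was called lower than each of the other exposures, with a log2 difference of Ce from Y of 1.63 ± 0.40 (SE, edgeR adjusted p = 0.0007).

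Cre03g177250, the fourth, had Ce lowest. The controls had 100.05, 224, 215, 325 and 198 CPM. The Ce libraries had 2.86, 2.68, 1.94, 3.46 and 2.59, against 7.84 to 20.1 in Tm, 11.1 to 17.5 in Y and 9.60 to 22.3 in Mix. The Ce libraries were below all other exposed libraries, which overlapped one another.

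In g11604, the fifth, Y was lowest at 5.31 ± 0.67 CPM and Ce, Tm and Mix lay at 9.92 ± 0.96, 10.3 ± 2.91 and 12.4 ± 3.51, against 165 ± 54.7 in the control. Cre07g327800, the sixth, fell from 88.5 ± 34.9 to 1.79 ± 0.43 CPM in Ce and 2.03 ± 1.21 in Y, and to 4.21 ± 1.61 in Tm and 6.49 ± 2.19 in Mix, an order of groups like that of the first gene. The next 6 were Cre08g366700, Cre17g7306001, Cre01g044650, Cre03g155250, Cre07g320400 and Cre12g492650. Their control means ran from 11.4 CPM (Cre07g320400) to 495 (Cre03g155250), and their highest D from -3.65 to -3.50. Y was the lowest group in 5 of these 6, and in Cre03g155250 it was Ce, at 14.8 ± 2.57 CPM against 19.6 ± 2.02 in Y. With library totals Y was the lowest group there too, with D of -4.40 against -4.26 in Ce.

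**Figure D4:**
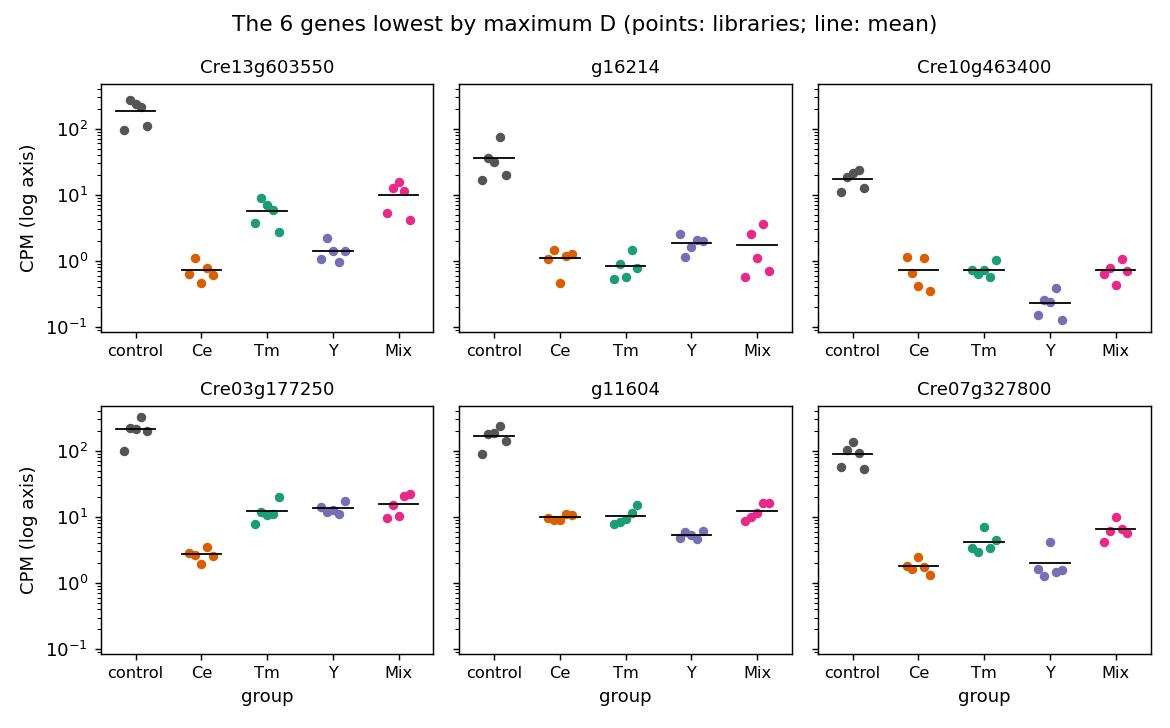
CPM (log axis) of the 6 genes with the lowest highest D, by group. Points are libraries and the line is their mean. All control points lie above all exposed points, Ce and Y lie lowest in Cre13g603550, Ce alone in Cre03g177250 and Y alone in g11604.

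The 8 genes with the most reads in the control had a highest D between -2.77 and -2.36. Cre02g097800 had 4163, 10000.3, 7136, 9767 and 5568 CPM in the controls, 353 to 585 in Y, 577 to 1048 in Tm, 640 to 1119 in Ce and 890 to 1573 in Mix. Y kept 6.25% of the control mean, Tm 11.1%, Ce 12.2% and Mix 16.3%. In g11079 the control mean was 2236 ± 569 CPM, and 144 ± 14.3 remained in Y against 435 ± 126 in Mix, with Ce at 278 ± 57.6 and Tm at 308 ± 87.3. Cre08g358250 (1668 ± 417 CPM in the control) and Cre07g327450 (1308 ± 321) were lowest in Mix, at 213 ± 55.0 and 144 ± 28.5 CPM, and their Mix and Y libraries overlapped (221 ± 50.1 and 149.7 ± 23.0 in Y). Cre11g478100, Cre08g3674001, g7098 and Cre12g554950 had control means of 1075, 938, 854 and 657 CPM. In the first 3 Y was lowest, and in Cre12g554950 Y and Ce lay at 80.3 ± 13.8 and 80.7 ± 16.2 CPM.

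How the exposures differed from one another was tested in 6 comparisons, each fitted on all 12796 genes with p-values adjusted over all of them (edgeR's quasi-likelihood test, 25 libraries in 1 fit). The differences between exposures depend on the scaling of Ce, whose factors were the highest. With library totals alone the median of all genes between Ce and Tm moved from 0.18 to 0.80 on the log2 scale. The difference between the median of the 200 genes and that of all tested genes moved little between scalings, and both medians are given beside each count. The exposures enter the rule alike, but it limits the group nearest to the control, so differences among the 200 are bounded on that side. A share of calls below that of all tested genes is therefore not read as a trait of the 200.

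Levels were lowest in Y. Against Tm, 102 of the 200 were higher in Tm (51.0%) and 0 were lower, where 9.75% of all tested genes were higher and 11% lower. At an unadjusted p under 0.05, 122 of the 200 differed, and the share of all tested genes was not counted. DESeq2 called 113 higher and 0 lower, where 13.8% and 11% of all genes it tested were. The median log2 difference of Tm from Y was 0.66 over the 200 and -0.04 over all tested genes, and with each of the 4 other scalings it lay 0.69 or 0.70 above that of all genes. Without control library 4 or Mix library 4 edgeR called 2 and 1 of the 200 lower in Tm. Of all tested genes 13.4% and 11.4% were lower there. The largest difference by the naming rule was in Cre12g504400, with 33.8, 53.1, 48.4, 56.3 and 65.8 CPM in Tm and 9.85, 12.4, 13.9, 15.3 and 10.2 in Y (2.07 ± 0.21, SE, edgeR adjusted p = 5.05e-07). All 5 Tm libraries lay above all 5 Y libraries. The next was Cre13g603550, at 5.67 ± 2.50 CPM in Tm and 1.41 ± 0.49 in Y (SD, n = 5; log2 difference 1.99 ± 0.40, SE, edgeR adjusted p = 0.000955).

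Against Y, Ce was higher in 105 of the 200 (52.5%) and lower in 20 (10.0%), where 39.6% of all tested genes were higher and 34.2% lower. The median of the 200 was 0.53 and that of all tested genes 0.11. With library totals alone 141 were higher and 9 lower, where 58.3% and 19% of all tested genes were. The library numbers of Ce and Y deviated together (correlations of 0.111 to 0.188 between same-numbered libraries), and with the replicate number as a block in a fit of these groups alone, added after the check had been seen, 117 were higher and 38 lower, where 44.3% and 38.1% of all tested genes were. The largest excess of Ce over Y was in Cre05g233350, at 9.76, 10.1, 8.16, 12.5 and 14.7 CPM in Ce and 1.39, 1.92, 1.51, 1.71 and 3.04 in Y (2.53 ± 0.27, SE, edgeR adjusted p = 4.29e-09). In g7098 Ce libraries had 102 to 183 CPM and Y libraries 24.6 to 29.3 (2.33 ± 0.20, SE, edgeR adjusted p = 1.01e-10). In both genes every Ce library was above every Y library. In the other direction Cre03g177250 was lower in Ce than in Y by -2.31 ± 0.28 (SE, edgeR adjusted p = 4.37e-08). The gene g10592 was at 1.47 to 4.12 CPM in Ce and 6.05 to 16.0 in Y (-2.27 ± 0.52, SE, edgeR adjusted p = 0.000326).

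Against Tm, Ce was higher in 27 of the 200 (13.5%) and lower in 57 (28.5%), where 42.4% of all tested genes were higher and 34.2% lower. The remaining 116 were not called. The median log2 difference was -0.09 over the 200 and 0.18 over all tested genes, and with each of the 4 other scalings the 200 lay 0.27 below all genes. Without Tm library 5 they lay 0.15 below, and their own median was 0.04; it was -0.04 without Ce library 3, -0.14 without Tm library 1 and -0.32 without Tm library 2. The balance of calls turned with the scaling. Library totals alone gave 106 higher and 27 lower, where 61.4% and 19.3% of all tested genes were. Upper-quartile factors gave 57 higher and 45 lower, where 48.7% and 29.4% of all tested genes were. Without Tm library 5 the counts of the 200 were 39 and 47, and without Tm library 2, the reference library, they were 18 and 76. Of all tested genes 41.5% and 32.9% were called without Tm library 5, and 35.5% and 38.8% without Tm library 2. The largest differences were those of Cre13g603550, lower in Ce by -2.92 ± 0.41 (SE, edgeR adjusted p = 3.74e-07), and Cre03g177250, by -2.19 ± 0.29 (SE, edgeR adjusted p = 1.01e-07). Higher in Ce were Cre08g363600, at 1.14 to 1.43 CPM against 0.146 to 0.542 in Tm (2.10 ± 0.44, SE, edgeR adjusted p = 9.5e-05, on 25 counts in all in Tm), and Cre06g264050, at 1.43 to 2.97 against 0.361 to 1.38 CPM (1.33 ± 0.23, SE, edgeR adjusted p = 8.71e-06).

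The study asks whether the elements interact, and Mix was set against each metal. Against Y, 124 of the 200 were higher in Mix (62.0%) and 0 were lower, where 16.3% of all tested genes were higher and 19.2% lower. At an unadjusted p under 0.05 142 differed, and the share of all tested genes was not counted. DESeq2 called 139 higher and 0 lower, where 21.8% and 16.6% of all genes it tested were. The median difference was 0.81 over the 200 and -0.04 over all tested genes, and no alternative tried gave a gene lower in Mix. Cre12g504400 had 57.7, 85.5, 85.4, 111 and 95.7 CPM in Mix, all above the highest Y library (15.3), and a log2 difference from Y of 2.82 ± 0.22 (SE, edgeR adjusted p = 4.44e-10). In Cre13g603550 Mix was above Y by 2.79 ± 0.39 (SE, edgeR adjusted p = 3.86e-06).

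Against Ce, 74 of the 200 were higher in Mix (37.0%) and 31 lower (15.5%), where 33.9% of all tested genes were higher and 44.9% lower. The median difference was 0.19 over the 200 and -0.22 over all tested genes. The median of the 200 was 0.08 without Mix library 4, 0.09 without Mix library 5, 0.12 without Ce library 3, 0.31 without Mix library 1, 0.44 without Tm library 2 and -0.46 with library totals, and it stayed above that of all genes each time. Library totals alone turned the balance of the 200, to 40 higher and 101 lower, where 19.8% and 62.8% of all tested genes were. The 31 became 17 with RLE factors, 14 with control library 1 as the TMM reference, 16 by DESeq2 and 13 without Tm library 2, the reference library. Of all tested genes 41.5%, 37.6%, 41.7% and 37.3% were lower in these 4 settings. Cre13g603550 (3.72 ± 0.40, SE, edgeR adjusted p = 3.34e-09) and Cre03g177250 (2.53 ± 0.28, SE, edgeR adjusted p = 6.9e-09) were the largest excesses of Mix over Ce. Lower in Mix were Cre04g223350, at 1.46 to 2.37 CPM against 2.95 to 5.70 in Ce (-1.25 ± 0.22, SE, edgeR adjusted p = 9.48e-06), and Cre10g446500, at 2.29 to 4.44 against 6.47 to 7.71 CPM (-1.10 ± 0.18, SE, edgeR adjusted p = 5.03e-06). In both of these genes Tm and Y lay below Ce as well, at 1.87 and 1.22 CPM and at 3.39 and 1.84 CPM.

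Against Tm, 0 of the 200 were higher or lower in Mix by edgeR, where 0.195% of all tested genes were higher and 0.977% lower. At an unadjusted p under 0.05 32 of the 200 differed, and the share of all tested genes was not counted. DESeq2 called 2 higher and 0 lower, where 0.461% and 1.32% of all genes it tested were. The median difference was 0.16 over the 200, with a median 95% interval from -0.33 to 0.65, and -0.00 over all tested genes, and in 148 of the 200 the interval lay within 2-fold on either side. The median of the 200 was 0.08 without Mix library 4 or Mix library 5, 0.11 without Tm library 1 and 0.24 without Mix library 1. Same-numbered libraries of Tm and Mix deviated together, with correlations of 0.193 to 0.440. With the number as a block in the fit of all libraries 6 were higher and 1 lower, where 0.641% and 1.61% of all tested genes were. In a fit of Tm and Mix alone with the block, added after the check had been seen, 52 were higher and 9 lower, where 9.75% and 9.01% of all tested genes were. The lowest adjusted p without the block was that of Cre12g492650, at 7.87 to 13.7 CPM in Tm and at least 13.7 in each Mix library (0.83 ± 0.22, SE, edgeR adjusted p = 0.0562).

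**Figure D5:**
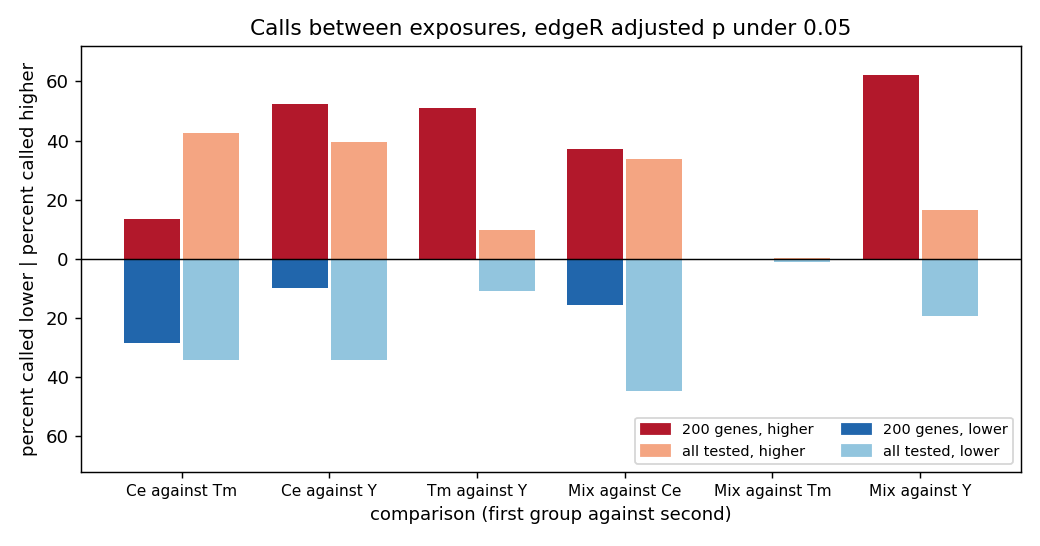
Percent of the 200 genes (dark bars) and of all 12796 tested genes (pale bars) called higher (red, upwards) or lower (blue, downwards) in the first group of each comparison between exposures, by edgeR at an adjusted p under 0.05. Y is the second group in the 3 comparisons with the most calls in 1 direction, at 52.5%, 51.0% and 62.0% higher than Y. Mix against Tm has 0% of the 200 in this fit, which has no replicate block. In a fit of Tm and Mix alone with the block, 52 of the 200 were higher and 9 lower, where 9.75% and 9.01% of all tested genes were. The dark bars of Ce against Tm and Mix against Ce change balance with library totals, and the pale bars do not.

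Read gene by gene, the calls of several comparisons were combined, and a gene can fit more than 1 combination. Unless another setting is named, the calls are those of the fit of all libraries without a replicate block. In 71 (35.5%) Y was called below Ce, Tm and Mix, a pattern that 3.52% of all tested genes had. Their median levels were 5.39% of the control in Y, 12.3% in Ce, 11.0% in Tm and 11.9% in Mix. The count was 62 to 75 when each library in turn was left out and 83 with library totals. In 20 genes (10.0%) Ce was below both Tm and Y, against 29.5% of all tested genes. Their medians were 4.52% of the control in Ce, 10.2% in Y, 12.7% in Tm and 14.5% in Mix, and the count was 9 with library totals and 33 in fits of only the groups compared. In 27 (13.5%) Ce was above Tm and Y, against 35.1% of all genes, and their medians were 15.5% of the control for Ce, 9.79% for Mix, 8.65% for Tm and 4.92% for Y. This count was 102 with library totals and 53 with upper-quartile factors.

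In 55 genes (27.5%) Mix was called above both Ce and Y, against 11.1% of all tested genes. The median levels of these were 13.3% of the control for Mix, 10.1% for Tm, 5.40% for Ce and 5.19% for Y. With library totals the count was 29, and the share of all tested genes was not counted there. In 29 (14.5%) none of the 6 comparisons gave a call, against 9.55% of all tested genes. The median gene of these was at 10.6% of its control level for Mix, 9.65% for Ce, 8.82% for Tm and 8.01% for Y, with a median control level of 21.2 CPM against 53.7 CPM for all 200.

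By the group means alone, Mix was the exposure nearest to the control in 94 of the 200, Ce in 70, Tm in 33 and Y in 3. Y was the farthest in 135, Ce in 50, Tm in 10 and Mix in 5. With library totals the nearest was Ce in 122 and Mix in 62, and Y remained the farthest exposure in the largest number, 156. These are places of means and are not tested.

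Libraries within an exposure also differed in the 200 genes. The median level in Tm was 4.70, 5.31, 4.84, 5.78 and 6.83 CPM in libraries 1 to 5, and in Mix 4.72, 5.73, 5.24, 7.48 and 6.72. Tm library 5 was the highest of its group in 138 genes, and Mix libraries 4 and 5 in 89 and 96. The shares of the 7985 genes with these libraries highest were not counted, so this is not read as particular to the 200. The same library number was highest in both Tm and Mix in 119 of the 200 (59.5%), against 50.7% of the 7985 genes. In Y the medians lay between 3.03 and 3.33 CPM and in Ce between 3.53 and 4.51. The median coefficient of variation of the 200 genes was 32.1% in the control, 28.3% in Mix, 24.7% in Tm, 18.8% in Y and 17.6% in Ce. Over the 7985 genes these values were 24.4%, 15.0%, 12.6%, 9.96% and 9.01%, in the same order of groups.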

How the data were processed

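The values are read counts per annotated transcript, deposited by the authors as 1 table of raw counts. Per the labels, polyA RNA of each library was sequenced, and 2 lanes are named but not which library ran on which. The submitters' processing notes name SAMtools 1.2, TopHat2 2.0.14 and Trim Galore 0.3.7. The counter, its strand setting and the genome build were not given in the sources used here. The text "PAC:" was stripped from 34 cells, none of them in the 200 genes. Counts were scaled to CPM with TMM factors (Tm library 2 as reference). edgeR 4.0.16 (R 4.3.3; filterByExpr, robust quasi-likelihood fit, 1 coefficient per group, Benjamini-Hochberg over 12796 rows) tested the differences between exposures; DESeq2 1.42.0 was an alternative. The choice of the genes and the edgeR fit, but not DESeq2, were tried on simulated data. SE is the size of the log2 difference over the root of F.

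The members, lists and the rule for named genes were chosen with earlier results of these data known. Named are the 12 with the lowest highest D, the 8 with the most CPM in the control, up to 2 with the largest difference in each direction of each comparison, and the 3 on each side of the limit. Libraries of a group differed beyond sampling noise (chi-square per degree of freedom of at least 5.96), so none was counted as a repeat. Deviations from the group means correlated by over 0.1 in every same-numbered pair for Ce with Y and for Tm with Mix, which were taken as paired, a reading of the data that no label states. Other scalings, filters, designs and left-out libraries were tried. Protein and promoter features were not analysed here. The ID Cre16g681750 stands on 2 rows, and reads of near-identical copies cannot be told apart.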

Additional observations from a re-analysis of the deposited data

Results flagged for a closer look

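Among 145 groups of 5 libraries of the named genes, 12 had 1 library apart from the other 4, by the gap to its neighbour against the range of the group (Dixon's 95% limit). By chance about 1 group in 20 is picked out in this way. Tm library 5 was the highest in 6 of the 12. It had 11.6 CPM of Cre17g7306001 (others 6.36 to 6.97), 13.7 of Cre12g492650 (7.87 to 9.49), 365 of Cre08g358250 (225 to 234), 229 of Cre07g327450 (154 to 174), 250.1 of Cre11g478100 (146 to 164) and 109.7 of g7098 (59.4 to 67.2). Cre08g358250 was also apart in Y library 5, with 307 CPM (others 184 to 218), and in Mix library 5, with 308 CPM (others 164 to 203). Ce library 3 was the lowest of its group for Cre07g327450, with 185 CPM (others 223 to 234). Cre07g327800 had 4.18 CPM in Y library 3 (others 1.26 to 1.64), g10592 had 4.12 CPM in Ce library 4 (others 1.47 to 1.94) and Cre04g223350 had 1.52 CPM in Y library 4 (others 1.09 to 1.21).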

How the results depend on the processing

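All 200 genes stayed below the control in all 4 exposures in each setting tried. This follows from their choice by a deep fall against the same controls, and nothing is read from it. Between exposures, library totals turned the median of the 200 from -0.09 to 0.53 for Ce against Tm and from 0.19 to -0.46 for Mix against Ce. The same rule gave 150 of the 200 with library totals, 156 with a floor of 20 CPM, 162 by the mean of the 4 differences, 165 with a pseudocount of 2, and 184 to 200 with each library left out. With library totals the counts of members higher and lower became 106 and 27 (Ce against Tm), 40 and 101 (Mix against Ce) and 2 higher (Mix against Tm), with 9 lower for Ce against Y and 1 lower for Tm against Y, and the median D in Ce was -2.46. Of all tested genes, library totals gave 61.4% higher and 19.3% lower for Ce against Tm. For Mix against Ce these shares were 19.8% and 62.8%, and for Mix against Tm 0.328% were higher. For Ce against Y 19% were lower, and for Tm against Y 9.7%. Upper-quartile factors gave 57 higher for Ce against Tm and 2 higher for Mix against Tm, where 48.7% and 0.352% of all tested genes were. Mix against Ce had 17 lower with RLE factors, 14 with control library 1 as reference and 16 by DESeq2, and the last 2 settings gave 2 higher for Mix against Tm. The replicate block gave 2 lower for Tm against Y and 6 higher and 1 lower for Mix against Tm. Of all tested genes the block gave 14.8%, 0.641% and 1.61%. Fits of the 2 groups alone gave 34 lower for Ce against Y, 4 lower for Tm against Y and 1 higher for Mix against Tm. Of all tested genes these fits gave 37.1%, 18.5% and 0.234%. With the block as well, added after seeing the data, they gave 38 lower for Ce against Y and 52 higher and 9 lower for Mix against Tm. The block moved no other count past 1.5 times. With a pseudocount of 2 the median D in Y was -3.12. The causes were not tested. With each library left out, Ce against Tm had 18 to 39 higher and 47 to 76 lower, Ce against Y 96 to 110 and 18 to 25, Tm against Y 78 to 112 and 0 to 2, Mix against Ce 66 to 96 and 13 to 36, Mix against Tm 0 to 3 and 0 to 1, and Mix against Y 106 to 145 and 0. Median D ran from -3.27 to -2.99 in Ce, -3.21 to -2.91 in Tm, -3.77 to -3.47 in Y and -3.07 to -2.77 in Mix. Levels under 1 CPM in an exposure, in 24 to 43 genes per exposure, rest on few counts.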

Other observations

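In 11 of the 200 genes the library with the same number was the highest of its group in all 5 groups, which is 5.5% of them against 3.99% of the 7985 genes. In 8 of the 11 it was library 4 (Cre03g160700, Cre07g334400, Cre17g703300, g17048, Cre12g561750, g9788, g4523 and g10592), in Cre12g558321 and g16739 library 5, and in Cre07g327800 library 3. In g10592 library 4 had 154 CPM in the control (others 14.6 to 57.6), 17.5 in Tm (others 4.97 to 10.4), 16.0 in Y (others 6.05 to 10.8) and 23.1 in Mix (others 4.86 to 11.0). These genes were picked for this pattern after their values were seen, and it was not tested.

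Of the 200 genes, 44 kept under 10% of their control level in all 4 exposures. The 4 that kept under 5% in all were Cre10g463400, Cre07g320400, g4500 and Cre01g044450. The exposures spanned more than 4-fold in 7 genes, Cre13g603550, Cre03g177250, Cre10g458100, g7098, Cre12g504400, Cre05g233350 and g10592.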
